A study of Mus musculus with 27 samples.

Results

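At 2920 stretches of the mouse genome ATAC-seq, an assay that cuts and tags accessible DNA, gave a called peak in NMuMG cells before TGF-β and 24 h after it, but no called peak at 8 h. The peaks of the 3 deposited ATAC-seq lists (0 h, 8 h and 24 h) were merged wherever they touched or overlapped, which gave 34453 regions on the mm9 build. The regions were chosen by presence and absence of called peaks: those that held both a 0 h and a 24 h peak and no 8 h peak were kept, 8.48% of all regions. They are called 8 h-missing regions here. Of the others, 6413 regions held a peak in all 3 lists and serve as the nearest comparison, 20880 held only a 24 h peak, 3586 held 8 h and 24 h peaks, 369 only a 0 h peak, 241 only an 8 h peak and 44 a 0 h and an 8 h peak. Because the same lists chose the regions, their ATAC-seq scores are given as a description without a test.

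NMuMG is an epithelial cell line from mouse mammary gland, grown here in DMEM with serum and insulin, which loses epithelial traits under TGF-β. Cells were left untreated (0 h) or were given TGF-β at 1 to 5 ng/ml for 8 h or 24 h. ATAC-seq and ChIP-seq against lamin B1 each gave 1 library per time, and each ChIP-seq library combined parallel immunoprecipitations. RNA-seq gave 2 libraries per time for parental cells, for cells carrying a control shRNA (shCT) and for cells carrying an shRNA against lamin B1 (shLB), 18 RNA libraries in all. ATAC-seq and lamin B1 were mapped in parental cells only, so the knockdown data bear on RNA alone.

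Promoters of active genes are usually depleted of nucleosomes, which lets the Tn5 transposase insert there, and a peak caller reports the site when enough insertions pile up. In epithelial to mesenchymal transition (EMT), TGF-β acts through SMAD proteins and early response factors of the AP-1 family to raise EMT transcription factors such as Snail and Zeb1, and junction and keratin genes are lowered with time. Lamin B1 is a filament protein of the nuclear lamina, best known for contacts with silent, A+T-rich chromatin at the nuclear edge.

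The sequences below show what the 8 h-missing regions look like at the DNA level, each 150 bases read 5′ to 3′ from the mm9 genome. For the first group, the promoters of Ccnt2, Socs3 and Mrps36 are shown because they held the strongest peaks among the regions, ranked by the lower of the 0 h and 24 h scores. Each runs up to the base before the transcription start site (TSS) on the strand of its gene, and capitals mark CG dinucleotides. Ccnt2 is at chr1:129670591-129670740 on the + strand, Socs3 at chr11:117831362-117831511 on the − strand and Mrps36 at chr13:101514615-101514764 on the − strand.
Ccnt2: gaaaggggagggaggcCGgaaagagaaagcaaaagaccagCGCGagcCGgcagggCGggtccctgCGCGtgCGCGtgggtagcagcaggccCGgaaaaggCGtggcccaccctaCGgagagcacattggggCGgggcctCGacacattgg
Socs3: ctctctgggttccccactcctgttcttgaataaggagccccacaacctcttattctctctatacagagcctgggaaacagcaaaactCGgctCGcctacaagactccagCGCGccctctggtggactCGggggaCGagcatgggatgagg
Mrps36: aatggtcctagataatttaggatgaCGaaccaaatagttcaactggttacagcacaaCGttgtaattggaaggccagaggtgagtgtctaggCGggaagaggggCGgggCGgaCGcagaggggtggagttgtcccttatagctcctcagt

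The second group shows promoters of genes whose RNA results are given below, Snai1 (the EMT factor Snail), Junb (an AP-1 subunit), Cdkn1a (the cell cycle inhibitor p21) and Rpl23a (a protein of the large ribosomal subunit). They lie at chr2:167363545-167363694 (+), chr8:87502618-87502767 (−), chr17:29230567-29230716 (+) and chr11:77997087-77997236 (−). Capitals again mark CG dinucleotides, of which Snai1 held 11, Junb 13, Cdkn1a 12 and Rpl23a 3.
Snai1: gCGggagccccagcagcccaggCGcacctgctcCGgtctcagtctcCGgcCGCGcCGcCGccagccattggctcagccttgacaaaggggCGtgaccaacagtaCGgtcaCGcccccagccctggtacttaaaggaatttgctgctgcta
Junb: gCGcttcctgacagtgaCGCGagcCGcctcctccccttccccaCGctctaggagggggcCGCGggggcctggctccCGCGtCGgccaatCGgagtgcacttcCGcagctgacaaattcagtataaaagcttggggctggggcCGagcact
Cdkn1a: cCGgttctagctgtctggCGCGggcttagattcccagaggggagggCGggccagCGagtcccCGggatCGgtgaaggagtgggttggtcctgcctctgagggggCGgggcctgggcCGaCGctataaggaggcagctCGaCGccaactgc
Rpl23a: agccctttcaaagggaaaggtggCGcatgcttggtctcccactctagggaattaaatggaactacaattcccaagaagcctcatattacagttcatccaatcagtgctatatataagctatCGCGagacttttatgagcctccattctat

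The last group shows 2 intergenic 8 h-missing regions that held the AP-1 letters TGANTCA, with the matches in capitals. They are the strongest intronic or intergenic regions with a match in the middle 150 bases of the 0 h peak, and AP-1 RNA is described below. AP-1 region 1 is at chr10:112320131-112320280, 41588 bp from the nearest protein-coding gene, Atxn7l3b, and held 2 matches. AP-1 region 2 is at chr11:55241825-55241974, 7755 bp from Sparc, a matrix protein gene, and held 1 match. Both are read on the + strand.
AP-1 region 1: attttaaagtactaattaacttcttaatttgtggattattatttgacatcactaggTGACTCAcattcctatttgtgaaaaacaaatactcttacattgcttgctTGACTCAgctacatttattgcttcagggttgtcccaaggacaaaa
AP-1 region 2: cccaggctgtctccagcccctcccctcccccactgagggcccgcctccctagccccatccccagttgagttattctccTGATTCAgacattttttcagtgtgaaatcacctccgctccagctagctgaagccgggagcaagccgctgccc

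The 3 ATAC-seq lists differed in length and in score, which bears on every statement about a missing peak. The 0 h list held 9782 peaks, the 8 h list 10340 and the 24 h list 33811, with median scores of 93.1, 73.9 and 155 on the scale of the MACS peak caller, where a higher score is a stronger peak and no list went below 50. No list gives reads, so depth is unknown, and a peak absent from the 8 h list may have lain just under its threshold.

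The 8 h-missing regions scored lower than all-times regions at both 0 h and 24 h. Their scores were higher at 24 h than at 0 h, as were those of the whole lists. Their 0 h score had a median of 74.1 (interquartile range 60.4 to 96.9, highest 278.9), against 109.5 (77.6 to 153) in regions with peaks at all times. Their 24 h score had a median of 226.5 (153 to 309), against 398.7 at all-times regions, whose 8 h score had a median of 82.9 (66.1 to 106). The missing share fell with 0 h score. Of 9333 regions with 0 h and 24 h peaks, 31.3% lacked an 8 h peak (Wilson 95% interval 30.4 to 32.2; intervals here cover counting error only), and this share was 56.3% (705 of 1252) for 0 h scores of 50 to 60, 45.7% for 60 to 75, 37.8% for 75 to 100, 21.4% for 100 to 150 and 6.51% (117 of 1797) from 150 up. Since both the rule and the score come from the same 0 h list, comparisons below are also given within these score classes. The classes match the 0 h score only. Within each class the 24 h scores of 8 h-missing regions were still lower. Their medians were 191.8, 204.2, 227, 290.8 and 318.3, against 299.5, 328.4, 351.5, 411.2 and 500.5 at all-times regions. Differences within a class are therefore not free of peak strength.

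**Figure D1:**
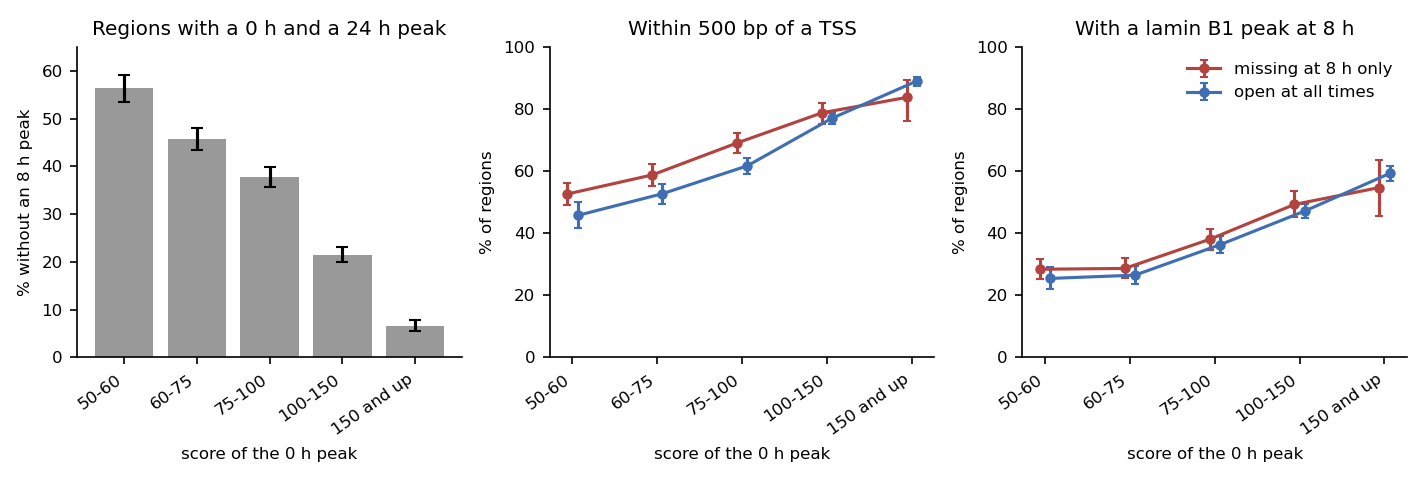
By class of 0 h MACS score (x axis), the percentage of regions with 0 h and 24 h peaks that lacked an 8 h peak (left), and the percentages of 8 h-missing and all-times regions within 500 bp of a TSS (middle) and with a lamin B1 peak at 8 h (right), with Wilson 95% intervals as error bars. The missing share drops from 56.3% in the lowest class to 6.51% in the highest, and the 8 h-missing points lie above the all-times points in the 4 lower classes and below them in the highest, in the middle and right panels.

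Most 8 h-missing regions had no 8 h peak nearby. The nearest 8 h peak lay at a median distance of 42570 bp (interquartile range 19100 to 96540), and 132 regions (4.52%) had one within 5000 bp and 4 within 500 bp. At the limit of the rule, the lowest 0 h scores inside it were 50.04 and 50.05 and the lowest 24 h scores 50.25 and 50.48, the latter at B4galt5. Among regions just outside it, which held an 8 h peak, the lowest 8 h scores were 50.01, 50.01 and 50.02, the last at Tex14. The regions had a median width of 1366 bp (389 to 6090).

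Of the strongest 10 of the 8 h-missing regions, 9 lay at promoters. The region at Ccnt2 (cyclin T2, a partner of the elongation kinase CDK9; chr1:129669850-129671507) had scores of 278.9 at 0 h and 569.6 at 24 h. Socs3, an inhibitor of cytokine signalling, followed with 231.2 and 353.9 (chr11:117829596-117831813), and Mrps36, a mitochondrial protein gene, with 226.4 and 564 (chr13:101513573-101515323). Others were at Eif3b (a translation initiation factor subunit), Lemd3 (an inner nuclear membrane protein that binds SMADs; 212.3 and 432.5, chr10:120414672-120417227), the shared start of Cenpp and Nol8, Stau1 (an RNA-binding protein), Pip4k2b (a phosphoinositide kinase) and Cebpz, and 1 was intergenic (chr1:182707511-182709127). At 8 h the RNA of Stau1 was higher (0.29, adjusted p = 0.00146, limma), and Socs3, Cenpp and Mrps36 were among those called lower. Of all genes tested, 22.4% rose and 32.1% fell. The Cenpp call was lost without the filter on low values (−0.3, adjusted p = 0.0664, limma) and under quantile normalization (−0.25, adjusted p = 0.051). The Mrps36 change was −0.17 without the first 8 h column and −0.14 without the first 0 h column. Socs3 had FPKM values (fragments scaled to transcript length and to the fragments mapped in the library) of 18 and 17.1 at 0 h, 11 and 12.1 at 8 h and 9.36 and 10.1 at 24 h in parental cells, lower at 8 h in both libraries (log2 change −0.56, SE 0.0634, adjusted p = 0.000414, limma). Ccnt2 measured 7.79 and 8.02 at 0 h and 7.02 and 7.55 at 8 h (−0.11, adjusted p = 0.15), and Lemd3 5.07 and 5.43 against 5.97 and 5.43 (0.1, adjusted p = 0.234), so the call was not made for either.

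By position, 64.7% of the 8 h-missing regions (1889, interval 62.9 to 66.4) lay within 500 bp of a TSS, 3.56% lay 500 to 2500 bp from one, 1.71% in exons, 12.5% in introns and 17.5% between genes. Regions with peaks at all times were more often at promoters (70.9%, 69.8 to 72), and 31.4% of all 34453 regions were. Within the 4 lower 0 h score classes the order turned around. At scores of 50 to 60, 52.6% (48.9 to 56.3) of the 8 h-missing regions and 45.7% (41.6 to 49.9) of the all-times regions were at promoters, at 75 to 100 the shares were 69.1% (65.7 to 72.3) and 61.7% (59 to 64.3), and from 150 up they were 83.8% and 89.1%. Regions covering the TSS of at least 2 genes made up 13.1% of the 8 h-missing set and 18.2% of the all-times set.

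Lamin B1 peaks overlapped 21.3% of the 8 h-missing regions at 0 h, 35.9% at 8 h and 28.1% at 24 h, while 57.1% overlapped none at any time and 13.9% overlapped one at every time. The all-times regions overlapped lamin B1 more often, at 26.1%, 43.3% and 35.7%. At promoters alone the lamin B1 shares were 30.9%, 52.4% and 41.6% for 8 h-missing regions and 35.4%, 58.5% and 48.7% for all-times regions. The lamin B1 lists themselves held 4645, 10484 and 7083 peaks, so the peak share at 8 h moved with list length, and the part of list length in it was not tested. Within 0 h score classes the 8 h overlap was 28.4% against 25.4% at 50 to 60, 38% against 36.3% at 75 to 100 and 54.7% against 59.2% from 150 up. A lamin B1 peak present at 8 h and not at 0 h overlapped 17.8% of the 8 h-missing regions.

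The 8 h-missing regions sat in more G+C-rich surroundings. Over the 50 kb on each side, G+C averaged 45.4% ± 3.81 (SD, n = 2920) against 44.7% ± 3.81 around all-times regions, and the mean was higher in each 0 h score class (45.2%, 45.2%, 45.5%, 45.6% and 46.1% against 44.3%, 44.1%, 44.6%, 44.8% and 45.2%). When regions with 0 h and 24 h peaks were split into 5 equal groups by flanking G+C, the share that lacked an 8 h peak was 25.1% (23.2 to 27.1), 28.8%, 32.2%, 34.2% and 36.1% (33.9 to 38.3) from the lowest to the highest group. The order was the same among regions with 0 h scores of 50 to 75 (41.7%, 43.6%, 50.6%, 57.4% and 59.2%) and of at least 100 (10.4%, 13.6%, 16.7%, 16.9% and 18.1%). At 75 to 100 it did not hold throughout, at 26.8%, 40.9%, 37%, 39.6% and 44.5%. G+C within the regions averaged 53.8% ± 7.63 (SD) and, at all-times regions, 54.2% ± 7.08, but within each score class it was higher in the 8 h-missing regions, at 52.8%, 52.4%, 54.4%, 55.9% and 57.2% against 51%, 51.4%, 53.1%, 55.2% and 56.7%. Base composition can alter how well fragments are amplified and sequenced, and its part in these shares was not tested.

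Chromosomes differed as well. The share of 0 h and 24 h regions without an 8 h peak was 41.9% on chromosome 11 (315 of 751, 38.5 to 45.5), 41.8% on chromosome 4 (215 of 515, 37.6 to 46.1), 41% on chromosome 14 (95 of 232) and 38.3% on chromosome X (67 of 175). It was 21.6% on chromosome 15 (105 of 487, 18.1 to 25.4) and 24.3% on chromosome 3 (130 of 536). These chromosomes were picked after their values were seen. With 0 h scores of at least 100, the shares were 27.8% on chromosome 11, 25.9% on chromosome 4 and 23.5% on chromosome 14, against 10.8% on chromosome 15, 12.7% on chromosome 3, 13.5% on chromosome X and 15.2% over all chromosomes, so X no longer stood above the whole. The RNA of genes with an 8 h-missing region did not follow this split, with median log2 changes from 0 h to 8 h in parental cells of −0.0447 over 234 genes on chromosome 11, −0.069 over 163 on chromosome 4 and −0.0646 over 57 on chromosome 15.

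**Figure D2:**
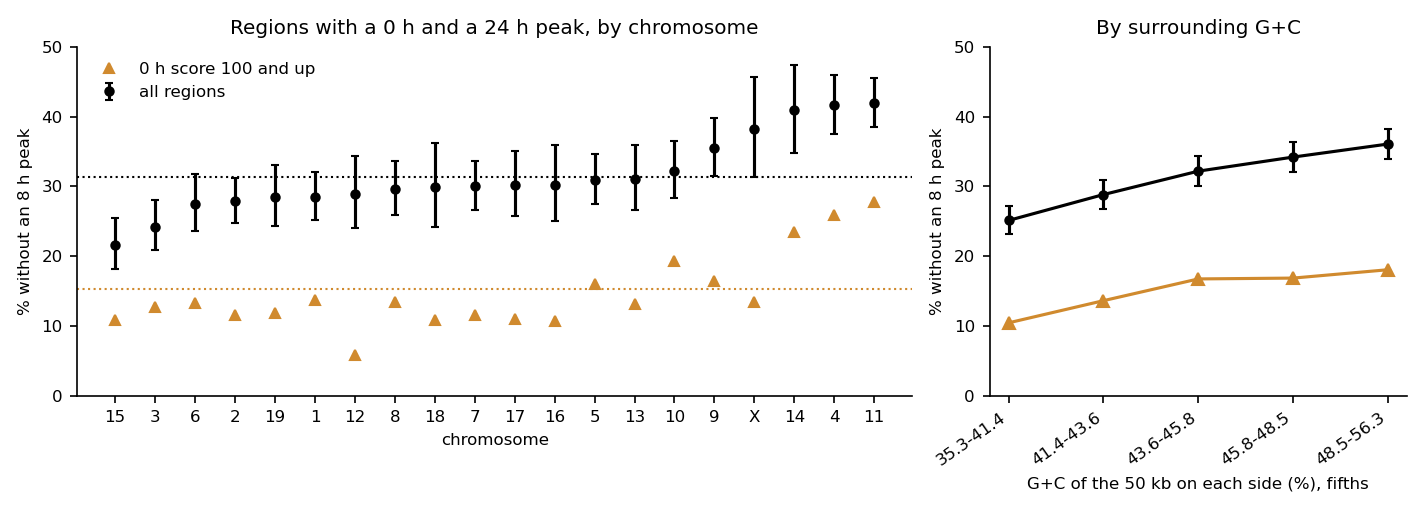
Share of regions with 0 h and 24 h ATAC-seq peaks that lacked an 8 h peak, in percent, on each chromosome (left) and by group of flanking G+C (right), where circles with Wilson 95% intervals are all such regions, triangles are those with a 0 h score of at least 100, and dotted lines are the shares over all chromosomes. Chromosomes 11 and 4 are highest at 41.9% and 41.8%, and chromosome 15 is lowest at 21.6%.

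Short sequence motifs of 14 kinds were searched on both strands around region centres. A match is a description of the letters, not of binding. The NF-Y letters CCAATCA, found at many promoters of housekeeping genes, were rarer in 8 h-missing than in all-times promoter regions. Within 500 bp, 7.41% (6.32 to 8.68) of the promoter 8 h-missing regions held them, against 15% (14 to 16.1) of promoter all-times regions, 7.29% of all regions and 10% of protein-coding promoters. Promoter regions with 8 h and 24 h peaks (7.83%) or a 24 h peak only (6.76%) stood near the 8 h-missing share. A low share was therefore not particular to regions without an 8 h peak. In 200 bp the shares were 3.49% (2.76 to 4.42) and 7.23% (6.52 to 8.02). The order held in every 0 h score class in 500 bp, at 5.39%, 6.87%, 8.16%, 8.43% and 9.18% against 9.6%, 8.27%, 13.7%, 14% and 20%. The gap was smallest in the class of 60 to 75. Away from promoters the NF-Y shares in 500 bp were 6.89% and 6.92%.

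The SP/KLF letters GGGCGGGG, bound by the SP and KLF zinc-finger factors, were in 38.5% and 45.4% of the 2 promoter sets within 500 bp and in 18% and 22.3% within 200 bp. Split by 0 h score the SP/KLF gap was uneven, at 37.7%, 31.6%, 40.8%, 40.8% and 53.1% against 38%, 40.5%, 41.5%, 45.5% and 50%, with the order turned around from 150 up. NRF1 letters (GCGCA and GCGC with 1 base between them) were in 12.1% and 14.1% within 500 bp and in 3.68% of all regions, and by 0 h score in 11.3%, 10.7%, 12.3%, 14.3% and 10.2% against 11.2%, 14.9%, 10.6%, 15.2% and 14.9%, higher in the 8 h-missing promoters in 2 of the 5 classes. Between 8 h-missing and all-times promoters, ETS letters CCGGAAG were in 24.3% and 23.7%, YY1 letters AAGATGGCG in 5.51% and 5.25%, the E-box CACCTG that Snail and Zeb factors recognise in 29.7% and 27.6%, and CTCF core letters (CCNNNAG followed by NNGGC) in 22.6% and 22.3% within 500 bp. Over all regions, most of them outside promoters, these shares were 8.55%, 1.6%, 27.1% and 12.1%. In protein-coding promoters they were 14.4%, 2.88%, 33.6% and 15.3%, so the E-box shares of both sets lay below that of promoters in general. NRF1 letters were in 7.2% of protein-coding promoters. Outside promoters, AP-1 letters TGANTCA were in 54.5% of 8 h-missing regions and 63.7% of all-times regions within 500 bp. Within 200 bp these shares were 33.3% and 38.3%. Non-promoter regions with only a 24 h peak held them at 67.7% and 44.85%, and those with 8 h and 24 h peaks at 73% and 48%. The 8 h-missing share was the lowest of these groups in both windows. Over all regions, promoters included, 49.5% and 31.8% held them. The AP-1 shares and those that follow were not split by score. The remaining motifs lay closer together outside promoters. Within 500 bp, 8 h-missing and all-times regions held TEAD letters ACATTCC at 12.3% and 11.1% and RUNX letters TGTGGTT at 20% and 19.2%. FOX letters TGTTTAC stood at 12.9% and 12.2%, CEBP letters TTGCNNAA at 22.7% and 21.6% and GRHL letters AACCNGTT at 3.59% and 3.54%. In non-promoter regions with only a 24 h peak the shares were 11.5%, 20.2%, 8.52%, 21.4% and 3.52% in that order. With 8 h and 24 h peaks they were 11.6%, 22.5%, 11.3%, 22.4% and 3.37%. Over all regions, promoters included, they were 9.18%, 15.9%, 7.6%, 18.4% and 3.19%. The SMAD palindrome GTCTAGAC was rare outside promoters, at 0.388% and 0.751%, and at 1.06% with only a 24 h peak (0.801% over all regions). Overlap between matches of different motifs was not removed.

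**Figure D3:**
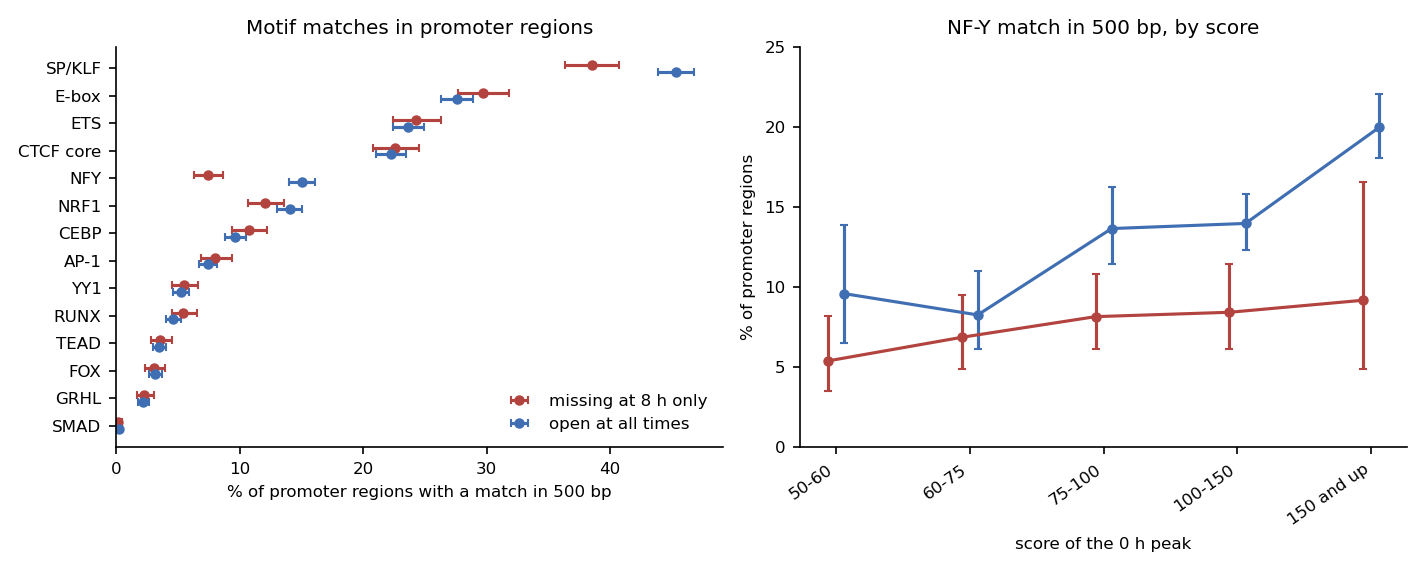
Share of regions at promoters with a match to each motif within 500 bp (left, percent) and with NF-Y letters by class of 0 h score (right), in 8 h-missing regions and in regions with peaks at all times, with Wilson 95% intervals. NF-Y letters stand at 7.41% and 15% of promoter regions within 500 bp.

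Before the RNA results, the knockdown and the labels were checked. Lmnb1 had FPKM values of 29.2 and 36.5 in shCT and 9.01 and 9.27 in shLB cells at 0 h, 32.8 and 32.1 against 7.79 and 8.14 at 8 h, and 18.4 and 17.9 against 4.37 and 7.52 at 24 h. Every shLB library was below every shCT library of its time (8 h log2 difference −1.9, adjusted p = 0.000189, limma). The parental cells expressed the epithelial genes Krt8 (2020 to 2600 FPKM) and Cdh1 (39.4 to 119), but Epcam was at 0.171 to 1.17 and Cldn7 (at most 0.0379) and Esrp1 (at most 0.0435) were near 0. Vim, a mesenchymal filament gene, was at 1160 to 1730, and the immune markers Ptprc and Cd3e were at or below 0.0235. In bulk RNA, fewer cells of a type and less RNA per cell cannot be told apart. With 2 libraries per group, p-values measure only the spread between those libraries. Changes are differences of log2(FPKM + 1), which understates the change of low genes.

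Genes with an 8 h-missing region within 500 bp of a TSS numbered 2098, of which 1923 were tested in parental cells among 11309 genes. At 8 h, when these regions had no peak, the median RNA level of the set stood close to that at the other times. A set median can stay level while single genes change. Over the 2079 of these genes measured in parental cells, median FPKM was 14.5 at 0 h, 14.3 at 8 h and 14.3 at 24 h, close to 14.3, 13.8 and 14 for genes with an all-times region and above 8.23, 7.98 and 8.66 for genes with a region only at 24 h. From 0 h to 8 h, 1034 changed (53.8% against 54.5% of all genes tested), of which 449 rose (23.4% against 22.4%) and 585 fell (30.4% against 32.1%). From 8 h to 24 h, 966 changed (50.2% against 51.8%), with 509 up (26.5% against 27.7%) and 457 down (23.8% against 24.0%). From 0 h to 24 h, 1346 changed (70% against 70.5%), with 642 up (33.4% against 33.4%) and 704 down (36.6% against 37.1%). Each share lay near that of all genes.

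In shCT cells, 1901 of these genes were tested among 11450. From 0 h to 8 h, 1249 changed (65.7% against 64.3%), with 369 up (19.4% against 19.4%) and 880 down (46.3% against 44.9%), and from 8 h to 24 h 951 changed (50% against 49.7%), with 479 up (25.2% against 25.2%) and 472 down (24.8% against 24.5%). The shCT direction at 8 h depends on scaling. After quantile normalization the 8 h against 0 h split became 533 up and 599 down, and the median change of all genes moved from −0.143 to −0.0246. The shares of all genes called under that scaling are not given, so these counts do not compare the set with the rest.

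Large changes were also compared. With a change of at least 2-fold also required, 30 genes rose (1.56% against 2.02%) and 22 fell (1.14% against 2.28%) from 0 h to 8 h in parental cells, 19 rose (0.988% against 1.88%) and 20 fell (1.04% against 1.75%) from 8 h to 24 h, and 70 rose (3.64% against 5.28%) and 100 fell (5.2% against 6.51%) from 0 h to 24 h. In shCT cells 60 rose (3.16% against 3.83%) and 79 fell (4.16% against 4.75%) from 0 h to 8 h, and 17 rose (0.894% against 1.97%) and 33 fell (1.74% against 2.52%) from 8 h to 24 h. These shares lay below those of all genes tested, but most were no lower than those of genes with an all-times region. The latter were 1.11% up and 1.05% down from 0 h to 8 h, 0.37% and 1.07% from 8 h to 24 h and 2.84% and 4.9% from 0 h to 24 h in parental cells, and 1.98% and 3.17%, then 0.646% and 2.08%, in shCT cells. Tested genes with no ATAC-seq region at the TSS had 3.53% up and 7.86% down from 0 h to 8 h in parental cells.

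Only 116 of the 1923 genes (6.03%) fell from 0 h to 8 h and rose again by 24 h, against 6.0% over all genes tested, and 88 (4.58%) were highest at 8 h, against 4.24%. With a 2-fold change also required in both steps (limma), 0 genes with an 8 h-missing region dipped. Few genes of any kind could meet this. Of all genes tested, 2.28% fell 2-fold from 0 h to 8 h and 1.88% rose 2-fold from 8 h to 24 h. The 0 is therefore not read as a trait of these genes. Genes whose region also overlapped a lamin B1 peak at 8 h were called between 0 h and 8 h in 53% of 1045 cases (25.4% higher, 27.7% lower), and genes whose region did not in 54.7% of 878 (21% higher, 33.7% lower). In shCT cells the shares were 21.6% higher and 44% lower with lamin B1 against 16.8% and 49.1% without it. The difference between these sets of genes was not tested. The 8 h knockdown comparison called 710 of these genes, 37.4% against 35.8% over all genes, of which 341 were higher (17.9% against 19.3%) and 369 lower (19.4% against 16.5%) in shLB cells. By at least 2-fold, 2 were higher (0.105% against 0.611%) and 2 lower (0.105% against 0.192%). Leaving out any 1 of the 4 libraries left fewer calls, and the shares of all genes in those fits are not given.

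Over all tested genes, 17.3% had an 8 h-missing region at a TSS, and 28.9% of their TSS regions with 0 h and 24 h peaks lacked an 8 h peak. Over all measured genes, tested or not, 9.47% had such a region at a TSS. The gene list shares below count measured genes, for which 9.47% is the share. Many of all measured genes were too low to be tested, while most members of most lists were tested. The 17.3% of tested genes is therefore the nearer base for the lists. Some list members were not tested. Of 19 measured mesenchymal genes, 3 had an 8 h-missing region at a TSS (15.8%; Fn1, Snai1 and Zeb1), 3 of the list's 7 regions with 0 h and 24 h peaks. All 3 rose at 8 h, against 11 of the 19 genes of the whole list and 22.4% of all genes tested. Snai1 measured 1.93 and 2.29 FPKM at 0 h, 16.3 and 13.5 at 8 h and 13.1 and 10.9 at 24 h. It was high at 8 h and 24 h, with no overlap with 0 h (8 h against 0 h 2.35, SE 0.116, adjusted p = 3.32e-05, limma). It rose while its ATAC-seq region, with scores of 59.6 at 0 h and 200.2 at 24 h, had no 8 h peak. Zeb1, a repressor of epithelial genes, measured 5.24 and 5.79, 11.5 and 11.3, and 20.2 and 19.8 (0.93, SE 0.0556, adjusted p = 4.46e-05 at 8 h). Fn1, which encodes fibronectin of the extracellular matrix, measured 53 and 64.4, 92.8 and 107, and 486 and 503 (0.76 at 8 h, adjusted p = 0.000784, and 2.3 from 8 h to 24 h, adjusted p = 8.88e-06). Zeb2, a relative of Zeb1, had such a region in an intron, kept an 8 h peak at a TSS and measured 1.92 and 2.03, 2.92 and 3.05, and 7.15 and 6.59 (0.42 at 8 h, adjusted p = 0.00161).

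The epithelial list had 3 of 23 measured genes with such a region (13%; 3 of 7 regions), Dsp, Krt18 and Esrp2. At 8 h 2 rose and 0 fell by limma, against 5 higher and 6 lower of 14 tested in the whole list and 22.4% and 32.1% of all genes. Dsp, a desmosome protein, measured 43.8 and 51.5, 59.7 and 62.8, and 43.3 and 43.9 FPKM (0.36 at 8 h, adjusted p = 0.00556, and −0.48 from 8 h to 24 h, adjusted p = 0.00167). Krt18, a simple epithelial keratin, measured 1780 and 1720, 1960 and 2060, and 2070 and 2110 (0.2 at 8 h, adjusted p = 0.0138), a call that was lost without the filter on low values or without the second 8 h column (adjusted p = 0.0589 and 0.086). Esrp2, a splicing factor of epithelial cells, measured 12.3 and 13.7, 11.9 and 11.8, and 8.09 and 8.31 (−0.12 at 8 h, adjusted p = 0.125, and −0.48 from 8 h to 24 h, adjusted p = 0.000616). Cdh1, the E-cadherin gene, carried 2 such regions inside the gene body, the first in an intron with scores of 62.2 and 107.7, and its FPKM fell from 113 and 119 to 86.3 and 92.9 at 8 h (−0.37, adjusted p = 0.000946).

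In the AP-1 list, 2 of 12 measured genes had such a region at a TSS (2 of 9 regions), Junb and Fos, and 7 had an all-times region there. Both rose at 8 h, as did 7 of the 9 tested genes of the whole list (22.4% of all genes), and both were lower at 24 h than at 8 h, as were 4 of the 9 (24.0% of all genes). Junb measured 102 and 96.7 FPKM at 0 h, 282 and 253 at 8 h and 240 and 229 at 24 h (1.42, SE 0.0593, adjusted p = 2.42e-05 at 8 h). Its fall by 24 h, −0.18 with adjusted p = 0.0363, was lost under quantile normalization (adjusted p = 0.147), without the filter (0.0853) and without either 24 h column or the first 8 h column (0.0703, 0.178 and 0.148), and in shCT cells the change was −0.07 (adjusted p = 0.43). The Junb region had scores of only 56.5 and 69.6, and an 8 h peak lay 997 bp away. Fos, the partner of Jun proteins, measured 2.49 and 2.86, 5.71 and 5.02, and 0.446 and 0.352 (0.79 at 8 h, adjusted p = 0.000374, and −2.18 from 8 h to 24 h, adjusted p = 6.94e-06). In shLB cells at 8 h Fos was 11.4 and 10.3 against 4.45 and 4.12 in shCT cells (1.17, adjusted p = 0.000123).

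In the TGF-β signalling list, 2 of 27 measured genes had such a region at a TSS (2 of 18 regions), Ltbp1 and Bmpr1a. Ltbp1 also had an 8 h peak at another of its starts. Ltbp1, which stores latent TGF-β in the matrix, measured 16.8 and 18.9, 39.5 and 35.9, and 56.7 and 53.9 (1.04 at 8 h, adjusted p = 6.21e-05). Bmpr1a, which encodes a BMP receptor, measured 16.3 and 16.2 at 0 h and 18.1 and 16.4 at 8 h (0.08, adjusted p = 0.259). Pmepa1 and Ski, which restrain SMAD signalling, had such a region in an intron and kept an 8 h peak at a TSS. Pmepa1 rose from 39 and 38.6 to 125 and 117 (1.61, adjusted p = 1.08e-05) and Ski from 14.7 and 16.2 to 38.3 and 33.4 (1.16, adjusted p = 6.2e-05). The TEAD and YAP list had 1 of 13, Tead3 (0.36, adjusted p = 0.00255), and the chromatin architecture and lamina list had 1 of 16, Lemd3, with no call in parental cells. In shCT cells at 8 h Tead3 was not called (−0.0417). Lemd3 was called higher there (0.195), a call lost when only the groups compared were fitted (adjusted p = 0.0615, limma). In the whole TGF-β, TEAD and architecture lists, 18 of 26, 9 of 13 and 3 of 16 tested genes rose at 8 h in parental cells, and 6, 1 and 6 fell. Over all genes tested, 22.4% rose and 32.1% fell.

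Genes with the largest changes came from several functions. Thbs1, a matrix glycoprotein that can activate latent TGF-β, measured 13.2 and 14.3 FPKM at 0 h, 72 and 52.7 at 8 h and 215 and 199 at 24 h (2.09 at 8 h, SE 0.131, adjusted p = 5.08e-05). Pfkfb4, a regulator of glycolysis, rose by 2.13 (adjusted p = 0.000151) and Rgs12, a regulator of G protein signalling, by 1.84 (adjusted p = 0.000134). Adam12, a metalloprotease, rose from 7.05 and 6.34 at 8 h to 28.8 and 27.6 at 24 h (1.93, adjusted p = 3.52e-06).

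Among genes that fell, Rbp4, a retinol carrier, measured 359 and 352 at 0 h, 109 and 155 at 8 h and 41.6 and 44.7 at 24 h (−1.44 at 8 h, adjusted p = 0.000232). Nrg1, a ligand of ERBB receptors, fell from 15 and 14.5 to 3.78 and 5.09 (−1.55, adjusted p = 9.93e-05). Dlk2 fell by 2.11 on the log2 scale (adjusted p = 3.43e-05) and Mt2, a metallothionein, by 1.71 (adjusted p = 4.34e-05). Iqgap2, a scaffold protein, fell from 27.6 and 35.3 at 8 h to 5.53 and 5.59 at 24 h (−2.3, adjusted p = 9.84e-06).

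**Figure D4:**
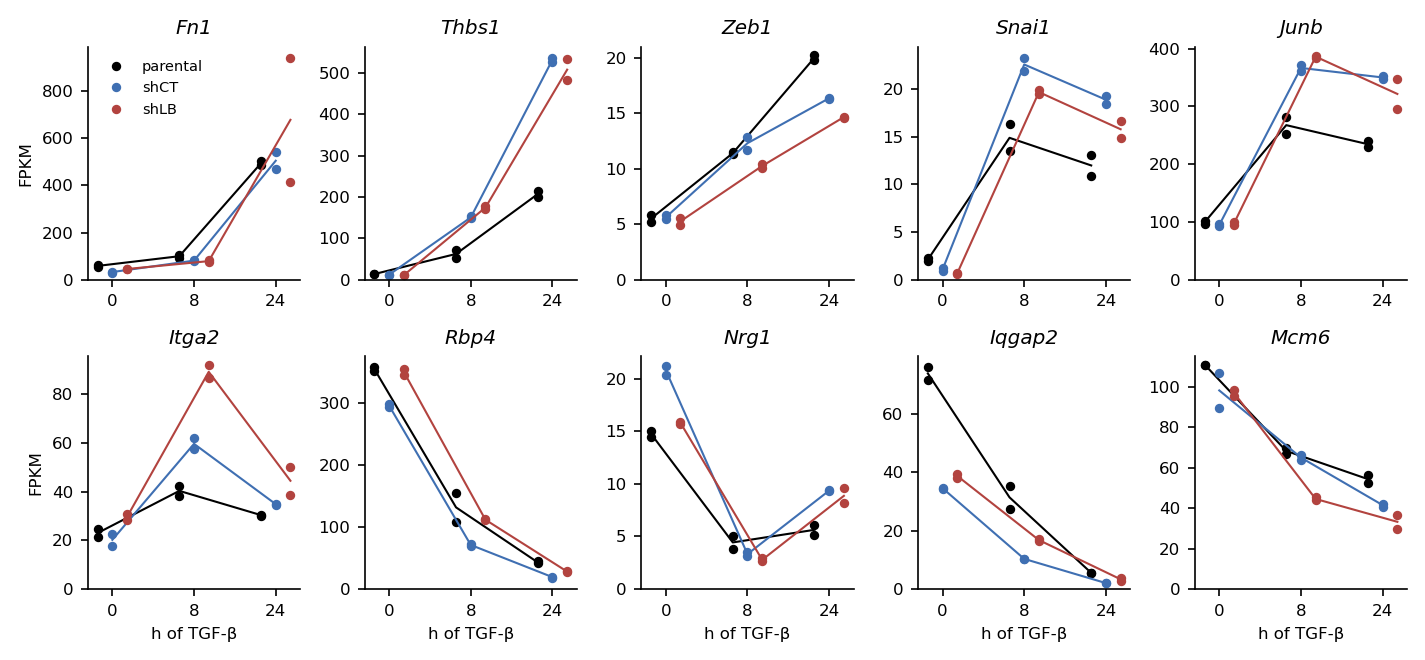
FPKM (y axis, linear) of 10 genes with an 8 h-missing region at a TSS at 0, 8 and 24 h of TGF-β (x axis), where points are the 2 libraries of each group, lines join group means, and colours stand for parental, shCT and shLB cells. Snai1 and Junb are already high at 8 h, Fn1 and Thbs1 are highest at 24 h, and Rbp4 and Iqgap2 fall at each step.

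In cells with reduced lamin B1, several of these genes differed at 8 h of TGF-β. Rbp4 measured 111 and 113 FPKM in shLB and 69.7 and 72.9 in shCT cells (0.64, adjusted p = 0.000111), and Iqgap2 16.4 and 17.2 against 10.4 and 10.3 (0.65, adjusted p = 0.00113). Both had fallen in shCT cells from 0 h to 8 h, Rbp4 by 2.04 and Iqgap2 by 1.65 on the log2 scale, and these 2 comparisons share the shCT libraries of 8 h. Dsp was higher at 74 and 70.1 against 55.1 and 50.3 (0.45, adjusted p = 0.00669), and Cdh1 at 83.1 and 84.1 against 51.6 and 52.1 (0.68, adjusted p = 0.00173). Lower in shLB cells were Mcm6, at 43.8 and 45.3 against 66.4 and 63.6 (−0.53, adjusted p = 0.00389), and Adam12, at 9.09 and 8.58 against 12.7 and 11.7 (−0.42, adjusted p = 0.00171). Snai1 measured 19.5 and 19.9 against 23.3 and 21.9 (−0.19, adjusted p = 0.143). The Dsp difference was lost without shCT replicate 2 (adjusted p = 0.0538).

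In the adhesion and cytoskeleton list 5 of 19 measured genes had an 8 h-missing region at a TSS (5 of 13 regions), with 2 higher and 2 lower at 8 h. In the whole list 13 and 3 of 18 tested were, and 22.4% and 32.1% of all genes. Cd44, a hyaluronan receptor, rose from 69.1 and 73.6 to 110 and 103 (0.57, adjusted p = 0.000204) and Itga2, a collagen-binding integrin, from 21.2 and 24.8 to 42.3 and 38.3 (0.78, adjusted p = 0.000263). Itga3 and Lama5, a laminin receptor subunit and a laminin chain, fell by 0.46 (adjusted p = 0.00384) and by 0.54 (adjusted p = 0.00331). In the cell cycle list 3 of 20 had such a region (3 of 17 regions) and 14 an all-times region. All 3 fell at 8 h, as did 18 of the 20 genes of the whole list, against 32.1% of all genes tested: Mcm6 of the replicative helicase from 111 and 111 to 69.7 and 66.9 (−0.69, adjusted p = 5.86e-05), Cdk2 by 0.51 (adjusted p = 0.000332) and Cdkn1a from 91 and 84 to 80.6 and 75.9 (−0.16, adjusted p = 0.0388). The Cdkn1a call was lost when only the groups compared were fitted (adjusted p = 0.0591), without the filter (0.0793) and without the second 8 h or the first 0 h column (0.146 and 0.196).

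Of 20 measured splicing genes, 6 had such a region (6 of 17 regions). At 8 h 1 was higher (Rbfox2, 0.41, adjusted p = 0.00105) and 1 lower (Srsf1, −0.19, adjusted p = 0.00547), and from 8 h to 24 h 5 fell and 1 rose (3 and 1 under quantile normalization). Of the whole list of 20, 3 were higher and 7 lower at 8 h, against 22.4% and 32.1% of all genes. Between 8 h and 24 h 15 of the 20 fell and 2 rose, against 24.0% and 27.7% of all genes. Rbfox2 also had an 8 h peak at another of its starts.

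Ribosomal protein genes stood highest among the lists. Of 83 measured genes of cytosolic ribosomal proteins, 30 (36.1%) had an 8 h-missing region at a TSS, against 9.47% of all measured genes and 17.3% of tested genes. Of the 49 regions with 0 h and 24 h peaks at their starts, 30 (61.2%, 47.3 to 73.6) lacked an 8 h peak, against 28.9% (27.8 to 30) at tested genes. Split by 0 h score the shares were 8 of 13 against 52.4% at 50 to 75, 14 of 15 against 40.5% at 75 to 100, and 8 of 21 against 14.7% from 100 up. Of the 30, 20 overlapped lamin B1 at 8 h (66.7%, against 53.7% of the 8 h-missing regions at tested genes). Of these 30 genes, 0 were higher and 3 lower from 0 h to 8 h by limma (median log2 change −0.08), against 0 and 8 of 79 in the whole list and 22.4% and 32.1% of all genes. Rpl23a measured 2580 and 2420, 2370 and 2370, and 2320 and 2360 FPKM (−0.07 at 8 h, adjusted p = 0.27) and Rps28 2670 and 2470, 2260 and 2390, and 2260 and 2400 (−0.14, adjusted p = 0.0976). In shLB against shCT cells at 8 h, 20 of the 30 were lower (median −0.18), as were 50 of the 79 tested genes of the whole list and 16.5% of all genes, but under quantile normalization only 1 was and the median became 0.07. Reads of these genes can be shared with processed pseudogenes, so their FPKM values are less certain.

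Other housekeeping lists stood closer to the whole. Respiratory chain genes had a region at 20 of 92 measured starts (20 of 52 regions, 38.5%), of which 11 fell and 0 rose by 8 h, and 11 fell and 2 rose between 8 h and 24 h (limma). In the whole list 48 and 37 of 87 fell in these steps, against 32.1% and 24.0% of all genes, and under quantile normalization 8 and 7 of the 20 fell. Mitochondrial ribosomal protein genes had 15 of 76 (14 of 43 regions, 32.6%), with 0 higher and 6 lower at 8 h (limma), against 1 and 32 of 76 in the whole list. Of all genes tested, 22.4% were higher and 32.1% lower. Mrps6 fell from 168 and 158 to 105 and 118 (−0.54, adjusted p = 0.000365) and Mrpl12 from 178 and 171 to 128 and 133 (−0.41, adjusted p = 0.000195). Zinc finger (Zfp) genes had 45 of 355 (45 of 139 regions, 32.4%). At 8 h 10 were higher and 7 lower of 42 tested (47 and 34 of 281 in the whole list, 22.4% and 32.1% of all genes). Zfp259 was among those higher, from 24.7 and 25 to 44.8 and 37.8 (0.71, adjusted p = 0.000311).

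**Figure D5:**
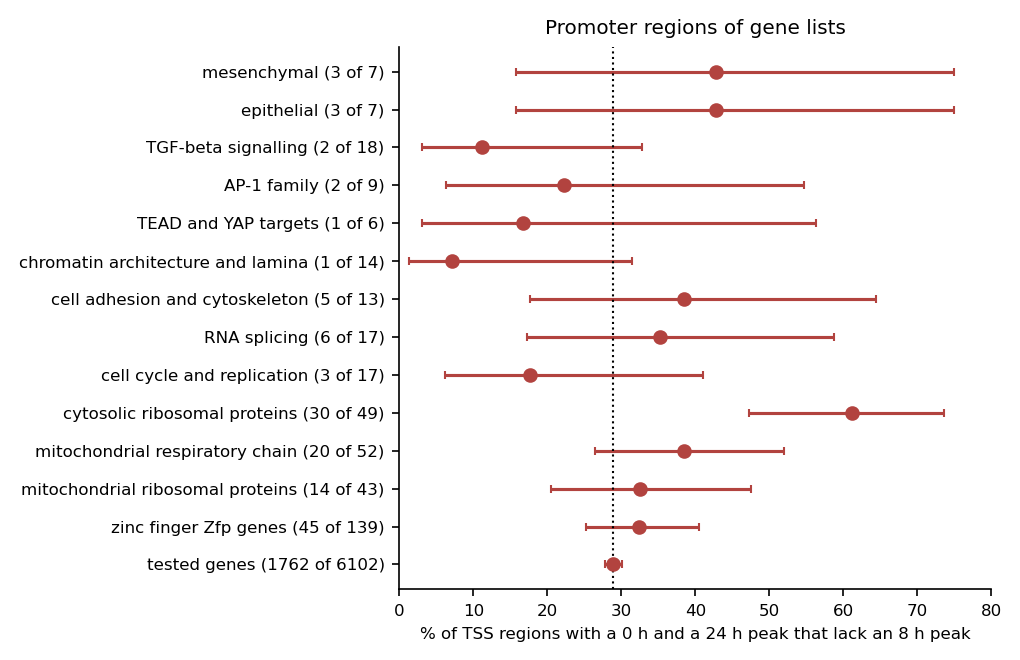
Percentage of TSS regions with 0 h and 24 h peaks that lacked an 8 h peak (x axis) for each gene list (y axis, with counts), with Wilson 95% intervals as error bars. Cytosolic ribosomal protein genes are at 61.2% and tested genes at 28.9%.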

How the data were processed

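ATAC-seq and lamin B1 ChIP-seq gave 3 libraries each and RNA-seq gave 18, and the 3 Hi-C libraries were not analysed here. The authors aligned reads to mm9, called peaks with MACS and deposited peak positions with a score per peak, 1 list per time. The MACS version is not given in the sources used here. The deposited FPKM values were computed by the authors, and the submitters' notes list Bowtie, TopHat and Cufflinks with no version. The FPKM tables have no header, so columns were taken in the order of the table titles, which for the parental table name only the times. Neither kind of file gives reads, so depth is unknown and its precision could not be set.

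Peaks that touched or overlapped were merged. A region was placed at a promoter when it lay within 500 bp of a TSS, and a lamin B1 peak counted when it overlapped. Sequences and G+C came from the mm9 (NCBIM37) genome and gene starts from its GENCODE annotation. Motifs were searched in 200 bp and 500 bp around region centres. Shares carry Wilson intervals at 95%. Genes reaching FPKM 1 in 2 or more libraries of a table were fitted as log2(FPKM + 1) with limma 3.58.1 in R 4.3.3 (eBayes with trend), in 1 fit of the 6 parental libraries and 1 of the 12 shRNA libraries, with Benjamini-Hochberg adjustment over all genes tested and a threshold of 0.05. Other steps used Python 3.11.15, numpy 2.4.6, pandas 2.3.3, scipy 1.17.1, pysam 0.24.0, samtools 1.23.1 and matplotlib 3.10.9. The fit was tested on simulated data, where for parental 8 h against 0 h it recovered 85% of genes changed by 0.5 and 95% of those changed by 1 on the log2 scale. Of its calls, 4.76% were false. The simulation changed 100 genes by each size, none of them at the lowest levels, and left the rest unchanged. Many more genes changed in the data, so these rates need not hold there or for low genes.

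Regions and gene lists were chosen with earlier results of these data known. Named regions are the 10 with the highest lower score of their 0 h and 24 h peaks, outside chromosome 18. Named genes are Lmnb1, list members with such a region from 2500 bp upstream to the 3′ end (the 4 with highest 0 h FPKM for lists of over 25 genes), and the 5 largest rises and 5 largest falls per parental step among called genes with a region at a TSS, non-overlapping replicates and a mean of at least 5 FPKM. Not every named gene is printed. Same-numbered shCT and shLB libraries deviated together with correlations of −0.135 at 0 h, −0.113 at 8 h and 0.368 at 24 h. These mixed values do not settle whether the numbers pair them, and the main fit treated them as unpaired. The alternatives tried were other score, overlap and distance rules for peaks, other windows, another pseudocount, no filter, quantile normalization, fits of only the groups compared, replicate blocks and leaving out each library.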

Additional observations from a re-analysis of the deposited data

How the results depend on the processing

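The 2920 regions became 1808 when each list kept only peaks at or above its own median score, 1272 with equally long lists of the strongest peaks and 643 with a score of at least 100 at 0 h and 24 h, while joining peaks over 500 bp, asking for 50% overlap or for no 8 h peak within 5000 bp left 2918, 2911 and 2788. In the order of those first 3 settings, the share at promoters was 82.5%, 78.2% and 80.4% (68.3% with a window of 2500 bp). Lamin B1 overlap was 31.8%, 26.2% and 31% at 0 h, 50.4%, 46.2% and 51.2% at 8 h and 40.5%, 36.2% and 39.8% at 24 h, and with lamin B1 peaks at or above their median score it was 12.1%, 22.3% and 17%. The share lacking an 8 h peak was 38.6%, 19.7% and 15% overall (30.3% without an 8 h peak within 5000 bp), 78.3%, 44% and 38.1% at ribosomal protein genes, 53.9%, 27.6% and 27.4% on chromosome 11, 27%, 11.8% and 10.8% on chromosome 15, 28.9%, 15.1% and 10.2% in the lowest and 45.9%, 23% and 17.8% in the highest of 5 groups by flanking G+C. NF-Y letters were in 11.5%, 9.65% and 8.7% of 8 h-missing promoters and in 18.6%, 15.8% and 16.9% of all-times promoters. The order of each pair of shares was the same under all 3 settings; the cause of the moves was not tested beyond the smaller lists.

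Genes called with a region at a TSS numbered 52, 39, 170, 139, 50 and 4 when a 2-fold change was also required, and 298, 269, 372, 362, 266 and 189 for regions scoring at least 100 (fewer genes by construction), for parental 8 h against 0 h, 24 h against 8 h and 24 h against 0 h, shCT 8 h against 0 h and 24 h against 8 h, and shLB against shCT at 8 h. Leaving out 1 library gave 766 to 1006, 633 to 898, 1101 to 1211, 1019 to 1155, 660 to 711 and 406 to 432 calls in the same order, with 633 coming without the second 24 h column. Genes lower at 8 h than at both other times numbered 68 to 146 when 1 library was left out (68 without the first 8 h column, 76 without the first 0 h column, 71 without the second 24 h column), 33 for regions scoring at least 100 and 0 at 2-fold. Apart from the 2-fold counts of single comparisons, the shares of all genes under these settings are not given. The counts here and in the next paragraph therefore show how calls moved, and do not compare these genes with the rest.

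No paired analysis was possible because the parental columns are not numbered. With the replicate number as a block, the shRNA table gave 1233 calls in shCT 8 h against 0 h, 918 in 24 h against 8 h and 698 in shLB against shCT, and 659 with the shLB numbers crossed. Under quantile normalization Hnrnpk (0.00) and Uqcrh (0.00) in parental 24 h against 0 h and Rps28 (0.02) and Rpl23a (0.07) in shLB against shCT changed sign. Over all named genes, comparisons and other settings, 1848 values kept their direction and side of the threshold, 56 lost the call and 43 gained it, and with 1 library left out 1510 kept it, 139 lost it and 27 gained it. Absence from the 8 h list depends on a score threshold near 50 and on 1 library per time.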

Other observations

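Along chromosomes, the 20 Mb windows with the highest share of 0 h and 24 h regions that lacked an 8 h peak were on chromosome 11 from 60 to 80 Mb (76 of 143, 53.2%), chromosome 9 from 60 to 80 Mb (54 of 102, 52.9%) and chromosome 4 from 120 to 140 Mb (76 of 152, 50%), and the lowest among windows with at least 50 such regions was on chromosome 3 from 120 to 140 Mb (11 of 87, 12.6%). These windows were picked after their values were seen, and no test was made of them.

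Of the 6 splicing genes with an 8 h-missing region, 3 are given here with their values at all times, chosen after these were seen. Rbfox2, a splicing regulator, measured 18.3 and 20 FPKM at 0 h, 26.4 and 24.9 at 8 h and 39.4 and 38.3 at 24 h (0.58 from 8 h to 24 h, adjusted p = 0.000206, limma). Snrpb, a core protein of the spliceosome, measured 258 and 233, 224 and 219, and 180 and 169 (−0.34, adjusted p = 0.00255), and Srsf3, a serine and arginine rich splicing factor, 178 and 167, 161 and 156, and 133 and 130 (−0.27, adjusted p = 0.00237).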
